A study of Mus musculus with 12 samples.

Results

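Cells that did not show a fluorescent reporter were sorted from 2 neurosphere experiments, and the comparison made here sets 3 mCherry-negative libraries against 3 EGFP-negative libraries. They are 6 of the 12 libraries of the series and were selected by their labelled sort gate alone. The other 6 libraries, from the reporter-positive cells of the same 2 experiments, are used only for values set beside these. All cells came from hypothalami of C57BL/6 mouse embryos of embryonic day 18, which were dissociated, given virus at a multiplicity of infection of 10, and grown as floating neurospheres. Basic fibroblast growth factor, a mitogen of neural progenitors, was present at 10 ng/ml from 24 h after seeding, and the spheres were dissociated and sorted after a week. The mCherry-negative cells had received an adeno-associated virus that carries a reporter for neurons making hypocretin (Hcrt). The EGFP-negative cells had received a lentivirus that carries a reporter for neurons making melanin-concentrating hormone (MCH, gene Pmch). cDNA was made with SMART-Seq v4 and 11 PCR cycles, from 0.8 ng of total RNA in the mCherry sort and from 2 ng in the EGFP sort, and 150 pg of that cDNA went into each Nextera XT library. Virus, reporter, RNA input and sort thus change together between the groups, and their parts in any difference cannot be told apart. The labels do not give the promoter behind either reporter, the number or sex of the embryos, or whether replicates are separate cultures, so the p-values describe no more than how these 6 libraries vary, and that variation may be technical.

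A negative gate collects every cell without detectable reporter, whether or not virus entered it. Neurospheres from late embryonic brain are known to hold dividing progenitors of the radial glial kind, oligodendrocyte precursors, astrocytes and young neurons. The hypothalamus and the neighbouring ventral forebrain give rise to many neurons that use GABA as transmitter, and transcription factors of the Dlx and Gsx families mark that lineage. In such mixtures of cells, fewer cells of a type and less RNA per cell cannot be told apart.

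Reads in genes numbered 21.7 to 32.6 M in the mCherry-negative and 16.3 to 25.8 M in the EGFP-negative libraries. Replicates spread more in the mCherry-negative group, with a common coefficient of variation of 0.361 against 0.126 in the EGFP-negative group. On log CPM (a gene's reads per megaread of all gene reads) the first principal component, with 40.8% of the variance, placed mCherry-negative replicate 3 at 94.1. The other mCherry-negative libraries stood at -4.97 and 7.63 on it and the EGFP-negative libraries at -35.1 to -30.7. Mitochondrial transcripts took 0.805% to 0.953% of gene reads in mCherry-negative and 1.16% to 1.36% in EGFP-negative libraries. Markers of radial glia and neural stem cells summed to 7008 to 7289 CPM in mCherry-negative and 6809.8 to 6967 CPM in EGFP-negative libraries. Those of endothelium summed to 7.71 to 11.4 CPM and 9.21 to 14.1 CPM, and those of the 10 erythroid markers at 0 to 1.12 CPM and 0.307 to 0.620 CPM.

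Between the groups, 571 genes were higher and 249 lower in mCherry-negative cells at an adjusted p under 0.05 by edgeR's quasi-likelihood test. These are 3.44% and 1.5% of the 16612 genes tested, and 4.94% together. Of the genes called higher, 369 differed by more than 2-fold, and of those called lower, 122 did. In none of the 820 did the libraries of the groups overlap, which held for 26.2% of all genes tested. The counts moved with single libraries. Without mCherry-negative replicate 1 they were 510 and 369. Without mCherry-negative replicate 3 they rose to 1185 higher and 928 lower. Without mCherry-negative replicate 2 they were 456 and 149, and without EGFP-negative replicate 1, 2 or 3 they fell to 229 and 40, 277 and 50, and 246 and 54. For single genes, the number of these 6 fits with 1 library left out that kept the call is therefore given below where it is under 6. Levels are CPM scaled by TMM factors unless stated, in the order of replicates 1, 2 and 3, and each log2 fold change is mCherry-negative over EGFP-negative with its standard error. Summed levels of gene lists, above and below, are CPM without TMM scaling. Levels set beside those of reporter-positive cells use TMM factors of all 12 libraries, except for Car3.

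Of the hormone genes that the reporters stand for, Pmch was lower in mCherry-negative cells and Hcrt was barely detected in either group. Pmch encodes the precursor of melanin-concentrating hormone, and it was detected at 0.264, 0.184 and 0 CPM without TMM scaling in mCherry-negative cells and at 4.01, 5.12 and 4.91 CPM in EGFP-negative cells. The mCherry-negative libraries were all lower, with 14 reads in all against 311. The rate was 28.2 times as high in EGFP-negative cells, with a 95% exact binomial interval of 16.5 to 52.1 that covers counting error only, and the log2 fold change was -4.84 ± 0.71 (edgeR adjusted p = 0.00362). The 2-sided exact permutation test gave p = 0.1, the smallest that 3 against 3 samples allow. Pmch lies inside the span of Parpbp on the opposite strand, which had 605 reads over the 6 libraries and a log2 fold change of -0.22 (adjusted p = 0.870). Hcrt, the gene of the hypocretin peptides, had 1, 5 and 5 reads in mCherry-negative and 4, 2 and 1 reads in EGFP-negative libraries. The groups overlapped, the ratio of EGFP-negative to mCherry-negative rates was 0.807 with an interval of 0.265 to 2.28, and at this depth no difference could be detected (exact permutation p = 0.7).

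The genes with the largest rise in mCherry-negative cells included transcription factors and genes of neurite growth and membrane currents. All of the 12 largest rises also hold a GC-rich stretch of sequence, described further below. Cebpb, a leucine-zipper transcription factor of stress and inflammatory responses, stood at 19.9, 26.03 and 25.4 CPM in mCherry-negative and 1.46, 1.91 and 1.78 CPM in EGFP-negative libraries. Every mCherry-negative library was more than 10 times as high as every EGFP-negative one, and the log2 fold change was 3.79 ± 0.25 (edgeR adjusted p = 5.44e-05). The span of Cebpb overlaps that of Tmem189 on the other strand, which had 7656 reads against 2115 and a log2 fold change of 0.16 (adjusted p = 0.6405). Gprin1, a G-protein-regulated inducer of neurite outgrowth, stood at 141, 120.3 and 147 CPM against 11.3, 10.1 and 10.7 CPM, a log2 fold change of 3.66 ± 0.16 (adjusted p = 1.02e-05). Its groups were likewise far apart and its replicates close. Sox3, a transcription factor of neural progenitors and of the developing hypothalamus and pituitary, stood at 20.3, 16.2 and 42.7 CPM against 3.00, 2.65 and 1.53 CPM, with replicate 3 highest among the former and lowest among the latter (log2 fold change 3.44 ± 0.41, adjusted p = 0.00112). Ybx3, a cold-shock-domain protein that binds RNA, stood at 147, 148 and 181 CPM against 19.8, 17.4 and 16.4 CPM (3.15 ± 0.16, adjusted p = 1.61e-05). Of the other genes in the 12 largest rises, Ier5l, Foxo6, Mmp24, Vax1, Wtip, Hcn2, Khdrbs3 and Lrp3, log2 fold changes ran from 2.82 for Lrp3 to 3.64 for Ier5l. Among them are a forkhead factor (Foxo6), a homeodomain factor of the ventral forebrain and optic stalk (Vax1), a membrane-bound metalloproteinase (Mmp24) and a channel of the hyperpolarization-activated current (Hcn2).

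**Figure D1:**
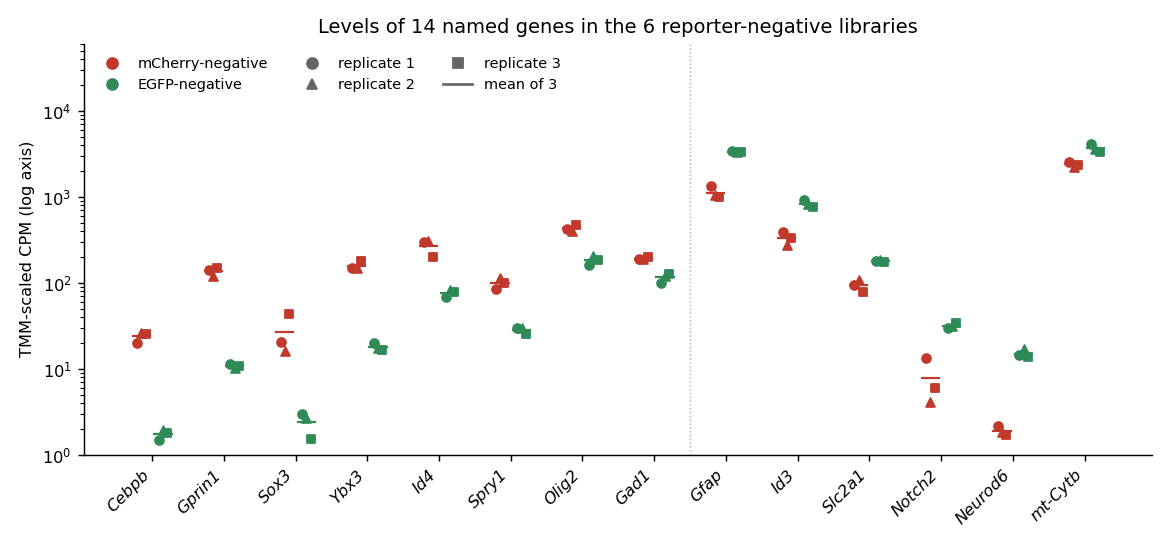
Levels of 14 named genes in each reporter-negative library, as TMM-scaled CPM on a log axis, with mCherry-negative libraries in red, EGFP-negative libraries in green and a bar at the mean of 3. Genes left of the dotted line were called higher and genes right of it lower in mCherry-negative cells, and in none of the 14 do the groups overlap.

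The most abundant genes called higher differed by less. Qk, an RNA-binding protein of glial differentiation, stood at 1433, 1231 and 817 CPM against 495, 429 and 529 CPM (log2 fold change 1.26 ± 0.20, edgeR adjusted p = 0.00530), lowest in mCherry-negative replicate 3 yet above all EGFP-negative libraries. Cspg5, a brain proteoglycan also called neuroglycan C, stood at 1245, 1402 and 1010.4 CPM against 545, 596 and 545 CPM (1.12 ± 0.14, adjusted p = 0.00162). Marcks, a substrate of protein kinase C at the plasma membrane, had a log2 fold change of 1.00 ± 0.12 (adjusted p = 0.00121). Rsrp1, Lamp1 and Map1b rose by log2 0.98, 0.74 and 0.51, and kept the call in 4, 1 and 2 of the 6 fits with 1 library left out, the largest adjusted p being 0.0597, 0.244 and 0.194.

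Genes lower in mCherry-negative cells included Gfap, the intermediate filament of astrocytes, at 1318, 1046 and 991 CPM against 3394, 3308 and 3292 CPM. All 3 mCherry-negative libraries were far below the tight EGFP-negative group, and the log2 fold change was -1.57 ± 0.13 (edgeR adjusted p = 1.80e-04). Neurod6, a helix-loop-helix factor of cortical glutamatergic neurons, stood at 2.18, 1.85 and 1.69 CPM against 14.3, 17.0 and 13.5 CPM (-2.97 ± 0.26, adjusted p = 2.08e-04). Hyou1, a chaperone of the endoplasmic reticulum, stood at 13.9, 12.98 and 10.2 CPM against 40.7, 41.9 and 47.9 CPM (-1.81 ± 0.19, adjusted p = 5.19e-04). Igfbp5, which binds insulin-like growth factors, and Plec, a linker of intermediate filaments, fell by 1.67 ± 0.16 and 1.65 ± 0.17 on the log2 scale. Cidea, a protein of lipid droplets, and Fam98b fell by 1.86 and 1.74. These 7 genes kept the call in all 6 fits with 1 library left out.

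A second set of falls depended on the library. Notch2, a receptor of the Notch pathway, stood at 13.2, 4.04 and 5.99 CPM in mCherry-negative and 29.6, 31.0 and 34.1 CPM in EGFP-negative libraries (log2 fold change -2.02 ± 0.38, edgeR adjusted p = 0.0138), with replicate 1 the highest of the low group. Aff1 (11.6, 3.57 and 3.71 CPM against 29.3, 29.4 and 33.8 CPM) and Col1a1, a fibrillar collagen chain (63.0, 19.02 and 25.3 CPM against 115, 124 and 96.2 CPM), were likewise highest in replicate 1 among the mCherry-negative libraries. Without 1 library, Notch2, Aff1 and Col1a1 kept the call in 3, 3 and 2 of 6 fits, with adjusted p up to 0.0689, 0.0647 and 0.148. Gprc5c, Lcat and Nxph4 kept it in 1, 2 and 4 fits, with adjusted p up to 0.188, 0.108 and 0.0684. Of the abundant genes, Actb (1381, 923 and 2063 CPM against 3604, 3174 and 3176 CPM) had a log2 fold change of -1.19 ± 0.24 (adjusted p = 0.0210). It kept the call in 2 fits and Ldha and Dpysl3 in 1 each, with adjusted p up to 0.110, 0.198 and 0.141.

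The genes called higher shared a feature of sequence that the selection of samples did not use and that was looked for after the calls had been seen. For each gene, the GC content of the most GC-rich 200 consecutive bases of its longest protein-coding transcript was taken from GENCODE M21 (GRCm38). This stretch had a median GC content of 82% in genes called higher, 68.5% in genes called lower and 66.5% in the rest. Whole transcripts differed far less, with median GC contents of 52.2%, 52.5% and 49.6%. The sequences below are the most GC-rich 200 bases within the coding sequence of 3 genes called higher and 2 called lower, in lower case with runs of 6 or more G or C in capitals, and show what such a stretch looks like. Ybx3 (chr6:131388048-131388247, minus strand, exon 1 of 10) and Ier5l (chr2:30473420-30473619, minus strand, its single exon) are among the largest rises, and their windows hold 87.5% and 86.5% GC. Id4 (chr13:48261498-48261697, plus strand, exon 1 of 3, 80% GC) and Id3 (chr4:136143881-136144080, plus strand, exon 1 of 3, 67.5% GC) are paralogues that moved in opposite directions. Neurod6 (chr6:55678988-55679187, minus strand, exon 2 of 2, 57.5% GC) is among the leading falls.
Ybx3: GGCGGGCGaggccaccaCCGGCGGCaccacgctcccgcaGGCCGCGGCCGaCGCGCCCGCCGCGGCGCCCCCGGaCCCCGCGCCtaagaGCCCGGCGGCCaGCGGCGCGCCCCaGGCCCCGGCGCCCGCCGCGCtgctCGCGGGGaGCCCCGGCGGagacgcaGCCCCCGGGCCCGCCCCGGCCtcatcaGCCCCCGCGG
Ier5l: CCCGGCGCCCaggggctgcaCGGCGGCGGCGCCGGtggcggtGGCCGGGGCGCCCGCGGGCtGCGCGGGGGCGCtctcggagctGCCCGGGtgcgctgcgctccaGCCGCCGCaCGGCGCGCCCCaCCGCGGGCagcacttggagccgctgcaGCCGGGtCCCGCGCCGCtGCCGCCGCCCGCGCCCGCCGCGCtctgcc
Id4: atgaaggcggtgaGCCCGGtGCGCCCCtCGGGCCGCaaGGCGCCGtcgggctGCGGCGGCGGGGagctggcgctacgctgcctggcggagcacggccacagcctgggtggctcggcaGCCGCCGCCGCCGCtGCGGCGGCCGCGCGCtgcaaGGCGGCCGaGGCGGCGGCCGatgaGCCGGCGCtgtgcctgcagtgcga
Id3: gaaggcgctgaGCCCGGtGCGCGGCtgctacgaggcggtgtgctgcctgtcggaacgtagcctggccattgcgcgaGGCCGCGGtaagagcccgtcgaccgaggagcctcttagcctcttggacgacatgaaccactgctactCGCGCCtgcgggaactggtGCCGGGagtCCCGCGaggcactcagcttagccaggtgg
Neurod6: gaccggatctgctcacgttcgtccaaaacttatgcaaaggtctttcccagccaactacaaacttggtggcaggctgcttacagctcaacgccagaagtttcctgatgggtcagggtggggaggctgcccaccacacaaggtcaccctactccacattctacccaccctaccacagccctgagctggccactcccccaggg
Runs of 6 or more G or C take 150 of the 200 bases in the Ybx3 window, 129 in Ier5l and 96 in Id4, against 39 in Id3 and 0 in Neurod6.

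Of the 1369 tested genes with a stretch of 80% GC or more, 27.0% were called higher and 0.584% lower in mCherry-negative cells. Of the 15139 with a less GC-rich stretch, 1.33% were higher and 1.59% lower. The genes with such a stretch were 8.24% of the genes tested and 64.6% of those called higher (369 of 571). All of the 12 largest rises named above were among them, from 82.5% GC in Sox3 to 89% in Khdrbs3. At 85% GC or more, 46.4% of 263 genes were called higher, with a median log2 fold change of 0.81 over all 263, and from 80% to 85%, 22.3% of 1106 with a median of 0.34. Below 75%, the share called higher was at most 1.22% in every bin. Among genes of at least 5 CPM the shares were 30.7% and 1.78%. Other window lengths gave the same order. Of the 1788 genes with a best 100 bases of at least 84% GC, 22.8% were called higher against 1.11% of the rest, and of the 1661 with a best 400 bases of at least 73.5%, 20.1% against 1.60%. The richest window began upstream of the start codon in 78.0% of the genes with a stretch of 80% or more and in 63.8% of the others. Within coding sequence alone the order held, with 34.6% of 315 genes called higher at 80% to 85% and 50.8% of 63 at 85% or more, and 0 called lower in either bin.

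**Figure D2:**
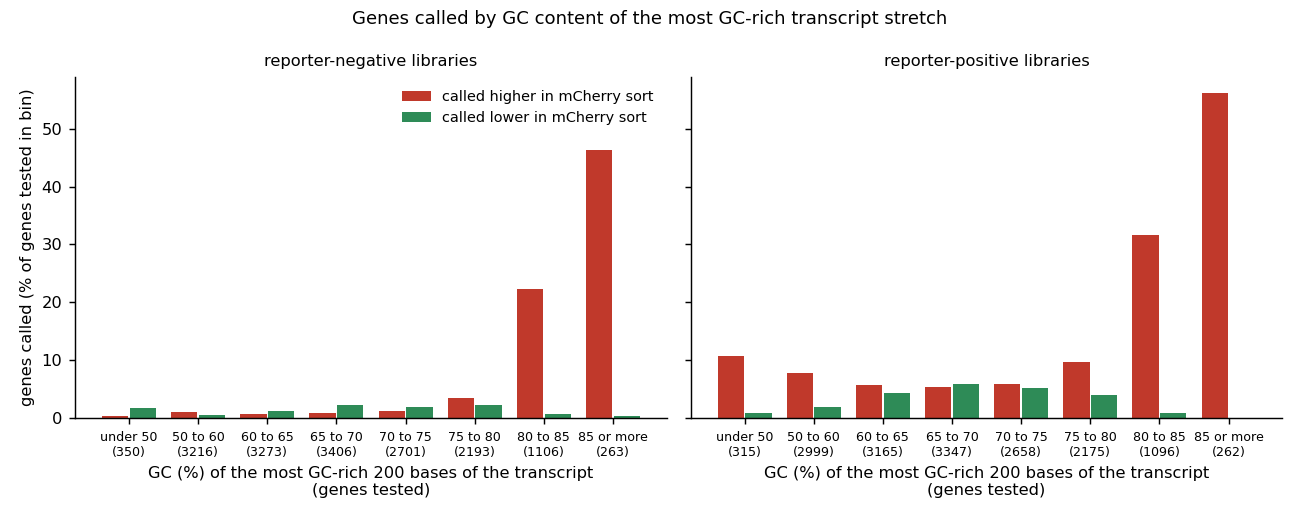
Share of genes called higher (red) or lower (green) in the mCherry sort by the GC content of the most GC-rich 200 bases of the transcript, for the reporter-negative comparison (left) and the reporter-positive one (right), with the genes tested per bin in brackets. In both, the share called higher is largest in the bins from 80% to 85% (22.3% and 31.7%) and at 85% or more (46.4% and 56.1%).

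Counted in reads instead of genes, the 1369 genes took 9.62%, 8.60% and 9.23% of gene reads in mCherry-negative libraries and 6.26%, 6.72% and 6.55% in EGFP-negative libraries. The groups did not overlap, and the means were 9.15% ± 0.516 (SD, n = 3) and 6.51% ± 0.235 (SD, n = 3), a ratio of 1.41 (2-sided exact permutation p = 0.1, the smallest possible). The reporter-positive libraries, which share no sample with these, stood at 8.81%, 9.08% and 9.22% in the mCherry sort and 6.36%, 5.54% and 5.43% in the EGFP sort. All 6 libraries of the mCherry sort thus lay above all 6 of the EGFP sort. The read-weighted mean GC content of whole genes overlapped between the groups, at 49.8% to 50.6% in mCherry-negative and 49.97% to 50.35% in EGFP-negative libraries. RNA input, virus and reporter moved with the share, and their parts in it cannot be told apart.

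**Figure D3:**
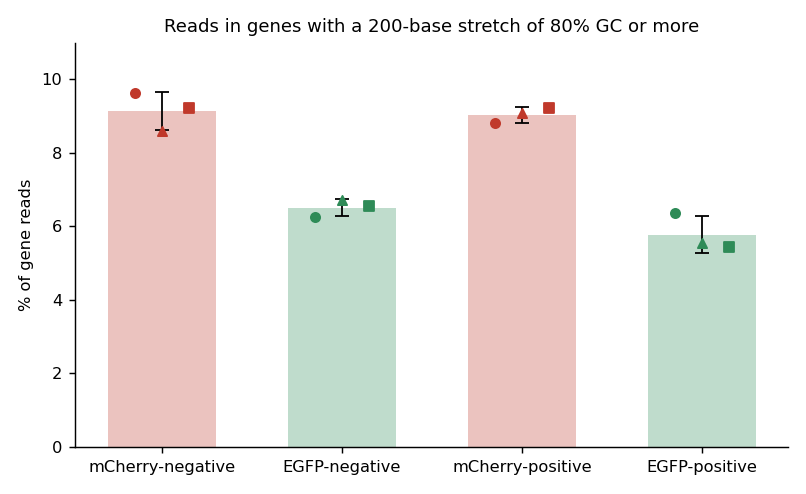
Percent of gene reads in the 1369 genes with a 200-base stretch of 80% GC or more, per library (points), with the group mean (bar) and SD of 3 libraries (error bar). The 6 libraries of the mCherry sort lie between 8.60% and 9.62%, above all 6 of the EGFP sort at 5.43% to 6.72%.

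With offsets per library for gene length, GC content and this stretch, an alternative chosen after seeing the data, 393 of the 571 rises were called again and 23 changed sign. In all, 634 rises were called with these offsets, including genes not called without them. Of the 102 named genes called in the comparison, 90 kept the call. Among genes of the lists below, Olig2 (0.96, edgeR adjusted p = 0.00285), Vax1 (2.31, 0.00127) and Sp9 (1.27, 0.00556) kept it. So did Six3 (1.01, 0.0119), E2f1 (0.73, 0.0131) and Spred1 (0.92, 0.046). Cebpb kept a log2 fold change of 3.13 (edgeR adjusted p = 5.64e-04), Sox3 of 2.82 (5.64e-04), Gprin1 of 2.79 (5.97e-05) and Ybx3 of 2.01 (6.34e-05). Qk, Marcks and Lamp1 were no longer called, at log2 fold changes of 0.08, 0.05 and 0.35 (adjusted p = 0.824, 0.835 and 0.281). Of the falls, 222 of 249 were called again, and Gprc5c, Lcat, Rsph1 and Clu were not, at -1.68, -1.38, -0.89 and -0.72 (adjusted p = 0.0656, 0.0715, 0.0830 and 0.0623). The p-values of the main fit were also adjusted again over fewer genes, without a new fit. Over genes without a stretch of 80% or more, 118 rises and 135 falls were called. Without a stretch of 75% or more, 62 rises and 93 falls were called. In the main adjustment, genes with a stretch under 80% held 202 rises and 241 falls. The lower counts for the same genes thus come from the changed adjustment alone.

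Of the 12946 tested genes with a stretch below 75% GC, 126 were called higher and 191 lower. Of those with a gene name other than a clone or model number, a mean of at least 5 CPM and no overlap between the groups, the 6 largest rises, named after their values had been seen, were Marveld1, Mark1, Saa3, Pex5l, Kmt5a and Reps1. Reps1, an endocytic adaptor, stood at 76.9, 74.1 and 67.1 CPM against 20.9, 22.0 and 18.7 CPM (log2 fold change 1.82 ± 0.15, edgeR adjusted p = 1.69e-04). Kmt5a, the methyltransferase that puts a single methyl group on a lysine of histone H4, stood at 95.9, 93.7 and 117 CPM against 32.4, 24.9 and 27.5 CPM (1.85 ± 0.17, adjusted p = 2.33e-04). Mark1, a kinase of microtubule-associated proteins, stood at 63.9, 60.5 and 49.8 CPM against 19.2, 11.3 and 13.7 CPM (1.98 ± 0.22, adjusted p = 7.48e-04). No overlap between the groups was a condition for naming these genes, so their separation adds nothing to the calls. Marveld1 rose by log2 2.81 ± 0.30 (adjusted p = 6.31e-04). Pex5l and Saa3, an acute-phase serum amyloid, kept the call in 5 and 2 of the 6 fits, with adjusted p up to 0.0528 and 0.164. Under the same limits, the 6 largest falls were Neurod6, Aff1, Cidea, Hyou1, Gprc5c and Fam98b.

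Gene lists of cell types, pathways and stress programmes were then read against the 3.44% of all genes called higher and the 1.5% called lower. Of 22 astrocyte markers, 5 fell and 0 rose in mCherry-negative cells, with a median log2 fold change of -0.57 against -0.0013 over all genes tested. Beside Gfap these were Agt, the angiotensin precursor, at 85.1, 108 and 79.0 CPM against 259, 258 and 229 CPM (-1.46 ± 0.15, edgeR adjusted p = 5.53e-04). Id3 fell too, as did Glul, the glutamine synthetase that clears glutamate (-0.72, adjusted p = 0.0113), and Clu (-0.80, adjusted p = 0.0455). Glul and Clu kept the call in 3 and 2 of the 6 fits, with adjusted p up to 0.0951 and 0.194. The list had 9 falls and 3 rises without mCherry-negative replicate 3, and 3 to 5 falls with 0 rises in the other 5 fits. Not every astrocyte marker was lower: Slc1a3, a glial glutamate transporter, stood at 3570.2, 4108 and 1625 CPM against 2174, 2267 and 2373 CPM, overlapping widely (adjusted p = 0.428), and the summed level of the list was 7513 to 12547 CPM against 14145 to 14170.3 CPM, lowest in mCherry-negative replicate 3. None of the 22 has a stretch of 80% GC or more.

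Progenitor genes moved singly. Tnc, a matrix protein of the stem cell niche, stood at 57.1, 39.8 and 44.3 CPM against 121, 139 and 139 CPM, a log2 fold change of -1.50 ± 0.17 (edgeR adjusted p = 7.17e-04), with no overlap. Hes1, a repressor downstream of Notch, stood at 89.0, 92.2 and 103 CPM against 39.5, 47.0 and 41.7 CPM (1.15 ± 0.14, adjusted p = 0.00143). Sox3 rose, while its relatives Sox2 and Sox1 stood at log2 fold changes of 0.30 and 0.44 with overlapping groups (adjusted p = 0.303 and 0.320). The most GC-rich stretches of Sox3, Sox2 and Sox1 hold 82.5%, 71.5% and 82% GC. Of all tested genes with a stretch of 80% or more, 27.0% were called higher. Of the 20 genes of the list, 2 rose and 2 fell, with a median of -0.10. Of the 15 tanycyte markers, 2 fell, led by Crym, a thyroid hormone-binding protein (35.2, 34.7 and 36.5 CPM against 74.8, 72.3 and 73.4 CPM, -1.05 ± 0.13, adjusted p = 0.00161), and of 18 genes of motile cilia 1 fell, Rsph1 (-1.06), which kept the call in 2 of 6 fits with adjusted p up to 0.154. The other tanycyte marker, Tgfb2 (-0.79), also kept it in 2, with adjusted p up to 0.201.

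In the oligodendrocyte lineage, Olig2, the lineage's helix-loop-helix factor, rose and Gpr17, a receptor of committed precursors, fell. Olig2 stood at 418, 399 and 470.3 CPM against 160, 205 and 185 CPM (log2 fold change 1.23 ± 0.14, edgeR adjusted p = 8.18e-04). Its neighbour and paralogue Olig1 stood at 1179, 1119 and 1357 CPM against 1368, 1466 and 1301 CPM, overlapping, with a log2 fold change of -0.18 (adjusted p = 0.497). The richest stretches of Olig2 and Olig1 hold 81% and 75.5% GC. Gpr17 stood at 647, 398 and 507 CPM against 881, 999 and 887 CPM (-0.83 ± 0.17, adjusted p = 0.0237), and kept the call in 2 of 6 fits with adjusted p up to 0.131. Of 18 myelin genes 0 were called, with a median of -0.11, although 5 were lower at an unadjusted p under 0.05, DESeq2 called 2 lower, and 5 fell without mCherry-negative replicate 3. Mbp, myelin basic protein, stood at 1256, 1052 and 1426 CPM against 1333, 1330 and 1285 CPM, and Cnp, a myelin-associated phosphodiesterase, at 842, 776 and 1025 CPM against 1160, 1139 and 1040.1 CPM.

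Genes of GABAergic neurons included several rises. Of 10 markers tested, 3 rose and 0 fell, and 8 had a log2 fold change above 0. Only 1 rise was left without any 1 of the EGFP-negative libraries. Gad1 and Gad2, the 2 enzymes that make GABA, stood at 187, 187 and 198 CPM against 100.5, 119 and 125 CPM (0.73 ± 0.13, edgeR adjusted p = 0.0132) and at 108, 96.3 and 145 CPM against 64.5, 64.3 and 61.0 CPM (0.88 ± 0.17, adjusted p = 0.0166). Neither set of libraries overlapped, and both genes kept the call in 3 of 6 fits, with adjusted p up to 0.111 and 0.112. Among the 15 genes of the Dlx and Gsx lineage, Sp9 (1.30 ± 0.21, adjusted p = 0.00669) and Zfhx3 (0.91 ± 0.21, adjusted p = 0.0378) rose and Gsx1, a progenitor homeodomain factor, fell (28.2, 27.9 and 39.8 CPM against 66.9, 58.8 and 61.9 CPM, -0.97 ± 0.18, adjusted p = 0.0131). Sp9, Zfhx3 and Gsx1 kept the call in 4, 2 and 2 of 6 fits, with adjusted p up to 0.0614, 0.204 and 0.0924. Zfhx3 has a stretch of 83.5% GC, Sp9 one of 78.5%, and Gad1 and Gad2 ones of 73% and 67.5%. With the stretch in the offsets Zfhx3 was no longer called (0.56, adjusted p = 0.220). Of 20 general neuronal genes, Ina, a neuronal intermediate filament (1.57 ± 0.22, adjusted p = 0.00265), and Syt1, the calcium sensor of transmitter release (0.85 ± 0.15, adjusted p = 0.0108), rose, Syt1 in 4 of 6 fits with adjusted p up to 0.0946.

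Markers of glutamatergic neurons were low in both groups, with a summed level of 7.47 to 14.9 CPM in mCherry-negative and 29.1 to 35.2 CPM in EGFP-negative libraries. Of 9 tested, Neurod6 and Neurod2 fell, and Neurod2 stood at 0.0649, 0.156 and 0 CPM against 1.05, 1.83 and 1.47 CPM (edgeR adjusted p = 0.0258, kept in 2 of 6 fits, with adjusted p up to 0.152). Of 18 hypothalamic neuropeptide genes, 2 fell, Pmch and Cck. Cck, the cholecystokinin precursor, stood at 0.877, 1.72 and 2.20 CPM against 10.4, 5.72 and 7.48 CPM (log2 fold change -2.31 ± 0.41, adjusted p = 0.0117), and kept the call in 4 of 6 fits with adjusted p up to 0.0936. Of 29 tested factors that pattern the hypothalamus, out of 44 listed, 4 rose and 0 fell, although the median was -0.41. Without mCherry-negative replicate 3 there were 5 rises and 6 falls, and without replicate 2 there were 3 rises and 2 falls. Vax1 stood at 12.5, 10.2 and 22.9 CPM against 2.19, 2.26 and 1.23 CPM (2.99 ± 0.39, adjusted p = 0.00178). Six3 (1.03 ± 0.21, adjusted p = 0.0219) and Nkx2-4 (2.23 ± 0.50, adjusted p = 0.0330) kept the call in 3 and 1 of 6 fits, with adjusted p up to 0.138 and 0.134. The antisense gene Six3os1 overlaps Six3 with 8360 reads against 3939 and stood at a log2 fold change of 0.03 (adjusted p = 0.953). The stretches of Six3, Vax1 and Nkx2-4 hold 78.5%, 83.5% and 84% GC, and with the stretch in the offsets Nkx2-4 was no longer called (1.68, adjusted p = 0.110).

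**Figure D4:**
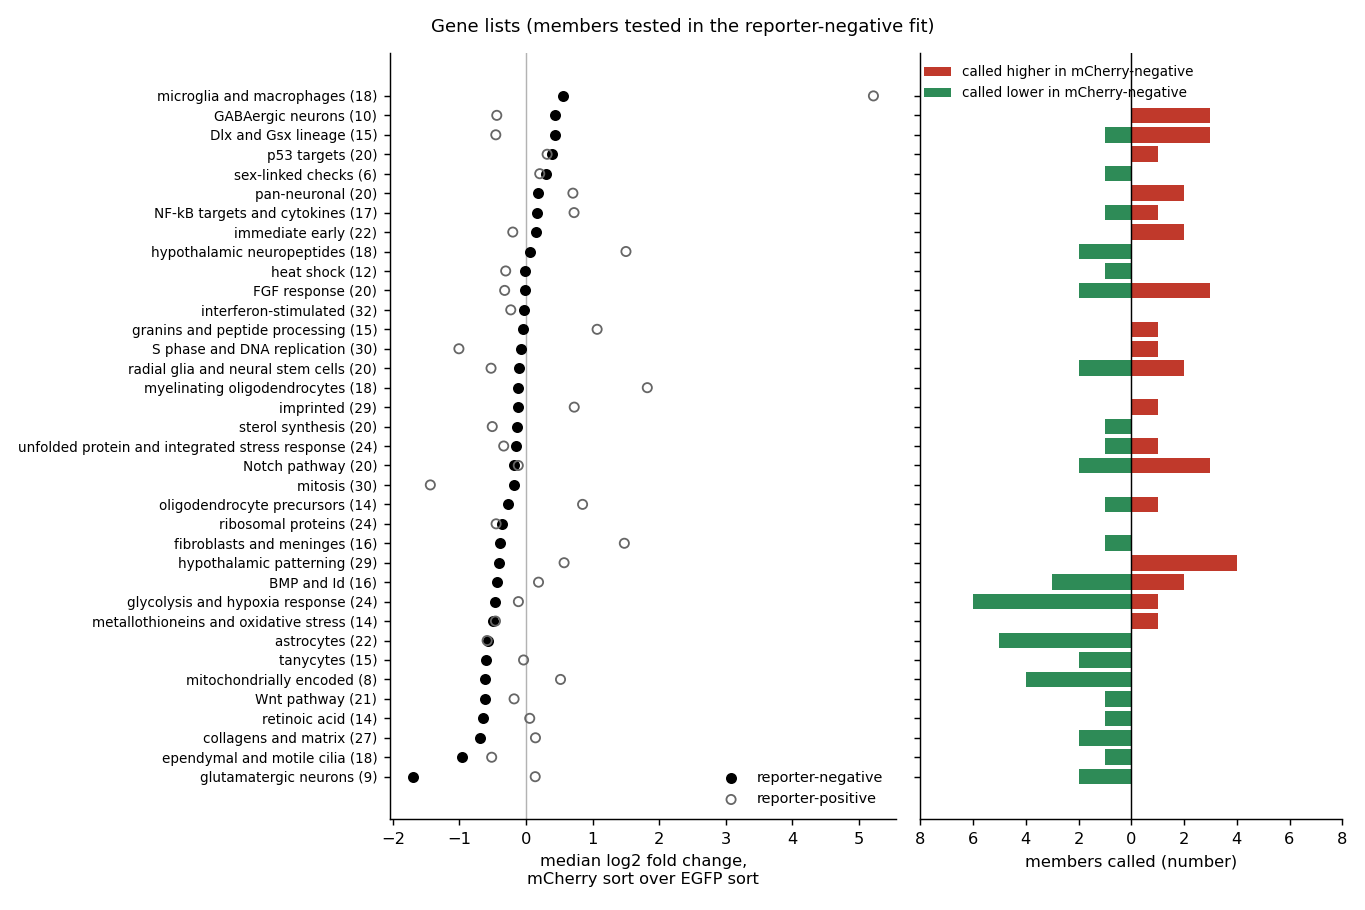
Left, median log2 fold change of the gene lists shown, mCherry sort over EGFP sort, in the reporter-negative libraries (filled) and the reporter-positive libraries (open), with members tested in brackets. Right, members called higher (red) or lower (green) in mCherry-negative cells, from 6 falls and 1 rise among 24 glycolysis and hypoxia genes to 0 calls among 30 mitosis genes.

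Signalling families split within themselves. The Id proteins are inhibitors of helix-loop-helix factors and targets of bone morphogenetic proteins. Id4 stood at 294, 308 and 201 CPM against 68.3, 81.4 and 77.2 CPM and rose (log2 fold change 1.82 ± 0.18, edgeR adjusted p = 4.53e-04). Id3 stood at 384, 277 and 332 CPM against 907, 814 and 753 CPM (-1.32 ± 0.15, adjusted p = 8.27e-04), Id2 at 299, 301 and 290.1 CPM against 570.4, 512 and 561 CPM (-0.88 ± 0.12, adjusted p = 0.00198), and Id1 fell as well (-0.87 ± 0.15, adjusted p = 0.0105, kept in 4 of 6 fits with adjusted p up to 0.0812). Id4 and the other 3 thus differed in opposite directions with no overlap in any. The richest 200 bases of the Id4 transcript hold 81.5% GC, and those of Id1, Id2 and Id3 68.5%, 65.5% and 67.5%. With the stretch in the offsets, Id4 stood at 1.34 (adjusted p = 5.90e-04). Bmp7, a ligand of the pathway, rose by log2 0.58 and kept the call in 2 of 6 fits with adjusted p up to 0.264.

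Feedback genes of fibroblast growth factor signalling split as well. Spry1, an inhibitor of receptor tyrosine kinase signalling, stood at 85.04, 113 and 99.9 CPM against 30.1, 29.5 and 25.6 CPM (log2 fold change 1.81 ± 0.16, edgeR adjusted p = 2.33e-04). Its paralogue Spry2 stood at 17.5, 13.7 and 15.8 CPM against 35.0, 32.5 and 39.4 CPM (-1.18 ± 0.18, adjusted p = 0.00444). The groups did not overlap in either, and their richest stretches hold 86% and 63.5% GC. With the stretch in the offsets Spry1 stood at 0.92 (adjusted p = 0.00933). Spred1, a related inhibitor with a stretch of 82.5%, rose (229, 178 and 88.7 CPM against 58.7, 53.2 and 60.3 CPM, adjusted p = 0.0146), as did Dusp4, and Ccnd1, the cyclin of early G1, fell (-0.98 ± 0.16, adjusted p = 0.00762). Spred1, Dusp4 and Ccnd1 kept the call in 2, 1 and 5 of 6 fits, with adjusted p up to 0.0912, 0.234 and 0.0618. Of the 20 genes of the list, 3 rose and 2 fell, with a median of -0.02.

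In the Notch pathway, the ligand genes Dll3 and Jag2 and the target Hes1 rose, and the receptor genes Notch1 and Notch2 fell, among 20 genes tested. Dll3 stood at 147, 152 and 250.5 CPM against 67.2, 88.2 and 72.1 CPM (log2 fold change 1.27 ± 0.22, edgeR adjusted p = 0.00922) and Notch1 at 95.3, 31.8 and 56.1 CPM against 192, 167 and 166 CPM (-1.52 ± 0.32, adjusted p = 0.0250). Dll3, Jag2 and Notch1 kept the call in 4, 2 and 3 of 6 fits, with adjusted p up to 0.0757, 0.195 and 0.120. With the stretch in the offsets, Jag2, whose richest stretch holds 88% GC, had a log2 fold change of 0.30 (adjusted p = 0.576). The stretches of the rising Hes1 and Dll3 hold 78.5% and 79.5% GC, close to the 76.5% and 77.5% of the falling Notch1 and Notch2. Jag2, Dusp4, Bmp7, Clu, Pdk1 and Car12 are called members of their lists beyond the 4 of smallest adjusted p and were named after their values had been seen, as were Olig1, Sox1, Sox2 and Slc1a3.

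Genes of glucose use and lactate export were among the falls. Of 24 genes of glycolysis and the hypoxia response 6 fell and 1 rose, with a median log2 fold change of -0.47, and 2 of the 24 were above 0. Slc16a3, a lactate exporter, stood at 33.4, 33.5 and 43.7 CPM against 83.6, 77.8 and 76.3 CPM (-1.10 ± 0.16, edgeR adjusted p = 0.00321). Slc2a1, the glucose transporter GLUT1, stood at 94.3, 108 and 78.7 CPM against 180.0, 185 and 172 CPM (-0.93 ± 0.15, adjusted p = 0.00559). Both kept the call in all 6 fits. P4ha1, Hk2, Ldha and Pdk1 fell as well, in 2, 2, 1 and 1 of 6 fits (adjusted p up to 0.172, 0.145, 0.198 and 0.231), and Car12, a carbonic anhydrase on the cell surface, rose in 2 (up to 0.174). Without mCherry-negative replicate 3 the list had 10 falls, and without any 1 of the EGFP-negative libraries 2.

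Of the 13 protein genes of the mitochondrial genome, 8 passed the filter on low counts, and 4 of these fell: mt-Nd1, mt-Nd2, mt-Nd4 and mt-Cytb, all components of respiratory complexes. mt-Nd4l, whose span overlaps that of mt-Nd4, had 0 reads over the 6 libraries, against 106232 for mt-Nd4. Why it had none was not tested, and the counts and the mitochondrial share above may not cover all mitochondrial RNA. mt-Cytb stood at 2569.6, 2237 and 2331 CPM against 4101, 3560.5 and 3342 CPM (log2 fold change -0.62 ± 0.12, edgeR adjusted p = 0.0167) and mt-Nd2 at 429, 320.0 and 423 CPM against 836, 657 and 658 CPM (-0.88 ± 0.16, adjusted p = 0.0128). No library of one group reached into the other in either. These 4 kept the call in 3, 4, 3 and 3 of 6 fits, in the order mt-Nd1, mt-Nd2, mt-Nd4, mt-Cytb, with adjusted p up to 0.122, 0.0861, 0.118 and 0.111. Of 20 nuclear genes of the respiratory chain 0 were called by edgeR or DESeq2, with a median of -0.04 and 1 lower at an unadjusted p under 0.05. Of these 20, 5 fell without mCherry-negative replicate 3.

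Several programmes showed no call. Of 32 interferon-stimulated genes 0 were called, with a median log2 fold change of -0.04 and a range of -0.45 to 1.44, and DESeq2 also called 0. At an unadjusted p under 0.05, 1 was higher and 1 lower, and 4 rose without mCherry-negative replicate 3. Ifi27 stood at 90.5, 78.4 and 64.4 CPM against 111, 97.0 and 96.5 CPM, and Ifitm3 at 105, 73.8 and 59.2 CPM against 108, 95.001 and 88.6 CPM, neither called. Of 30 mitosis genes 0 were called by edgeR (median -0.18) and 4 were lower by DESeq2, 5 were lower at an unadjusted p under 0.05, and 2 fell without mCherry-negative replicate 3. Of 30 genes of DNA replication 1 rose, E2f1, at 40.2, 39.5 and 46.7 CPM against 19.6, 20.0 and 21.1 CPM (1.06 ± 0.16, edgeR adjusted p = 0.00418, with a stretch of 81.5% GC). Of 18 microglial markers edgeR called 0 and DESeq2 2 higher, with 5 higher and 1 lower at an unadjusted p under 0.05, and 2 rose without mCherry-negative replicate 1 and 1 fell without replicate 3. C1qb, a complement component, stood at 9.97, 17.8 and 62.5 CPM against 17.7, 12.5 and 9.99 CPM. The summed microglial level was 83.02, 123 and 331 CPM against 120.1, 106 and 93.6 CPM, highest in mCherry-negative replicate 3. Among 22 immediate early genes Arc, an activity-regulated gene of synapses, rose (91.5, 90.1 and 79.8 CPM against 41.9, 42.4 and 42.7 CPM, 1.04 ± 0.14, adjusted p = 0.00182), as did Egr4, which kept the call in 2 of 6 fits with adjusted p up to 0.193.

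Differences between the reporter-negative groups were set beside the same contrast in the reporter-positive cells of both experiments. There, 2182 of 16921 genes (12.9%) were called, 1544 of them higher and 638 lower in mCherry-positive cells. Of the 571 genes higher in mCherry-negative cells, 388 (68.0%) were also called higher in mCherry-positive over EGFP-positive cells, which is 25.1% of the 1544 called there. Of the 249 lower genes, 72 (28.9%) were also called lower, which is 11.3% of 638. Signs were shared by 549 of 568 higher and 203 of 245 lower genes tested in both. The share of all tested genes with the same sign in both was not computed, so these counts have no baseline. In the positive cells the higher and lower genes had median log2 fold changes of 1.27 and -0.57, against -0.0012 over all genes tested there. Among the rises with a stretch of 80% GC or more, 282 of 368 were called in both (76.6%), among those at 75% to 80%, 36 of 76 (47.4%), and among those under 75%, 70 of 124 (56.5%). Over all genes tested in the positive cells, 31.7% were called higher at 80% to 85%, 56.1% at 85% or more, 9.61% at 75% to 80%, and 5.32% to 10.8% in the bins below. Neurod6 (log2 fold change -3.78 in the reporter-positive cells), Gfap (-1.18), Id3 (-2.24), Gprin1 (3.90) and Ybx3 (2.94) were called the same way in both by edgeR (adjusted p = 0.00226, 0.00309, 0.00100, 0.00121 and 0.00305). Pmch was lower in both as well, with a log2 fold change of -6.12 in the positive cells (adjusted p = 5.91e-04).

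**Figure D5:**
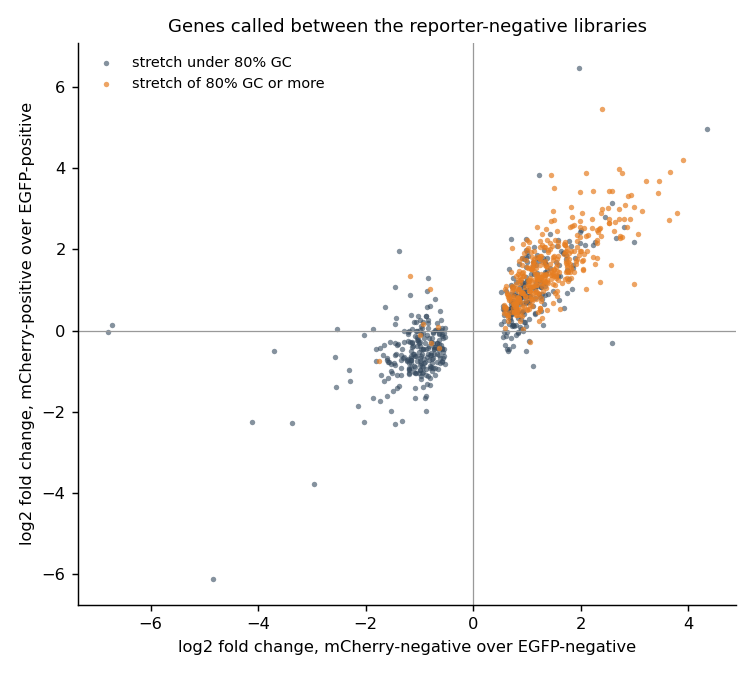
Log2 fold change of the genes called between the reporter-negative libraries (x axis, mCherry-negative over EGFP-negative) against that between the reporter-positive libraries (y axis), for the 813 genes tested in both. Genes with a 200-base stretch of 80% GC or more (orange) lie almost all at the upper right, where 367 of 368 called higher have the same sign.

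A test of the difference between the 2 contrasts, in 1 edgeR fit of all 12 libraries, called 261 of 18063 genes (1.44%), of which 160 were more negative in the reporter-negative cells. Of the 571 rises it called 10 and of the 249 falls 17. Several of the most negative differences were in microglial genes, whose levels differed in the positive sort. Cx3cr1, the fractalkine receptor of microglia, stood at 2.12, 3.44 and 3.54 CPM in mCherry-negative and 3.62, 3.96 and 3.43 CPM in EGFP-negative cells. It stood at 76.4, 3.47 and 13.9 CPM in mCherry-positive and 0.186, 0.0398 and 0.0701 CPM in EGFP-positive cells, so that the negative groups overlapped and the positive ones did not (difference -8.68 ± 1.34, adjusted p = 0.0109). Myelin genes also differed: 0 of 18 were called between the negative groups, 13 were higher in mCherry-positive cells, and the difference was called for 11. Of 30 mitosis genes, 29 were lower in mCherry-positive cells against 0 between the negative groups, and the difference was called for 15. mt-Cytb (difference -1.05, adjusted p = 0.0272), mt-Nd4 (-1.35, adjusted p = 0.0304) and Slc16a3 (-1.25, adjusted p = 0.0406) were lower in mCherry-negative than EGFP-negative cells and not called lower in mCherry-positive than EGFP-positive cells. The count of called differences was 27 to 591 when 1 library was left out, lowest without EGFP-negative replicate 3 and highest without mCherry-positive replicate 1.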

How the data were processed

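RNA-seq counts per gene were used from 12 sorted-cell libraries, 3 per group, with the 6 reporter-negative libraries as the comparison. The deposited values are unnormalized integer read counts per Ensembl gene from the authors. Per the submitters' processing notes, cutadapt 1.8, STAR 2.5.2b, HTSeq 0.6.1 and the build GRCm38 were used. Which annotation release was counted, and whether strand was used, is not given in the sources used here, so reads of a gene and an overlapping gene on the other strand cannot be told apart. Of 97 named genes checked, 30 overlap another gene's span, and for 3 of these (Pmch, Cebpb and Six3) the partner on the other strand had more reads. HTSeq's entries that name no gene stayed out of library sizes and tests and held 35.1% to 38.2% of counted reads in the 6 libraries. Of 48709 identifiers, 48349 matched GENCODE M21, which gave symbols, positions and transcript sequences.

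Counts were tested with edgeR 4.0.16 in R 4.3.3: TMM factors, filterByExpr (minimum count 10, minimum total 15), group as the only term, the quasi-likelihood F test and Benjamini-Hochberg adjustment over all genes tested, with calls at an adjusted p under 0.05. The reporter-negative and reporter-positive contrasts were each fitted on their own 6 libraries, and their difference in 1 fit of all 12. Standard errors were derived from each log2 fold change and its F statistic. The procedure was tested on simulated counts. Single values were compared with 2-sided exact permutation tests, and read ratios carry exact binomial intervals at 95%. A count of 0 allows up to 3 counts, which is 0.138 CPM for mCherry-negative replicate 3. Reads carried no molecular identifiers and PCR copies count repeatedly, which is why intervals and this limit cover counting error only. Replicates of a group differed by far more than counting error, with a chi-square per degree of freedom of 6.20 to 81.6, so none was a copy.

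The comparison, the 47 gene lists (906 of 907 entries found), the naming rule and the alternatives were chosen with earlier results of these data known. By that rule the text names Hcrt and Pmch, per direction the 12 largest fold changes among called genes of at least 5 CPM without overlap and the 6 most abundant called genes without overlap, for each list the 4 called genes lowest in adjusted p (the 2 highest in CPM where none was called), and for the difference 6 per direction. Clone and predicted-gene names were left out. GC-rich stretches, and the alternatives that use them, were added after seeing the data. Other alternatives were DESeq2 1.42.0 and its size factors, limma 3.58.1 voom with and without sample weights, upper-quartile factors, other filters, thinned counts, a test against 2-fold, offsets for length and GC, the replicate block and leaving out each library. The main test did not pair samples by replicate number, and no pairing by number was seen. Lists not described in the report are given in the closing section, and some items are not reported here.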

Additional observations from a re-analysis of the deposited data

Results flagged for a closer look

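For 20 named genes the difference between mCherry and EGFP cells was not the same in the reporter-negative as in the reporter-positive sort, by the test of that difference in edgeR's fit of all 12 libraries (adjusted p under 0.05). Values are the log2 fold change of mCherry over EGFP in negative cells minus that in positive cells.

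Microglial and macrophage genes had strongly negative differences, with Mpeg1 at -9.33, Cybb at -9.09, Cx3cr1 at -8.68, Csf1r at -7.61 and Tmem119 at -5.52. Oacyl, which is not on the microglial list, had the most negative difference of the 20, at -9.62, and stood at 0.205, 13.8 and 55.8 CPM in the 3 mCherry-positive libraries. In the positive sort these genes were uneven across libraries. Csf1r, the receptor of a macrophage growth factor, stood at 144, 7.96 and 6.78 CPM in mCherry-positive replicates 1, 2 and 3, and at 2.99, 4.02 and 4.31 CPM in mCherry-negative cells. Their levels were low in both negative groups and none of the 6 was called there.

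Oligodendrocyte genes were next. Mbp differed by -2.12, Gpr17 by -2.06 and Cnp by -1.28. Mbp stood near 1229 CPM in mCherry-negative, 1289 CPM in EGFP-negative and 1608 CPM in mCherry-positive cells and at 387 CPM in EGFP-positive cells, the group that stood apart. Gpr17 was lowest in the same group, with means of 511, 904, 446 and 189 CPM in that order. The mitochondrial genes mt-Nd4 and mt-Cytb differed by -1.35 and -1.05, and Slc16a3 by -1.25.

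Positive differences were found for Gsx2 (2.11), Acta2 (2.10), Car3 (2.03), Neil3 (1.90), Tagln (1.85), Pclaf (1.77), Arc (1.36) and Cdc20 (1.17). Pclaf, a partner of the replication clamp, stood at means of 127 CPM in mCherry-negative, 119.9 CPM in EGFP-negative, 135 CPM in EGFP-positive and 41.6 CPM in mCherry-positive cells. Car3, a carbonic anhydrase, was called between the negative groups as well, at 56.8, 64.9 and 98.6 CPM against 34.1, 33.9 and 33.8 CPM (log2 fold change 1.11 ± 0.21, edgeR adjusted p = 0.0141). It kept that call in 3 of the 6 fits with 1 library left out, with adjusted p up to 0.0921. What sets any of these differences was not tested.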

How the results depend on the processing

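All 102 named genes called in the comparison kept their direction wherever they were tested again. Without 1 mCherry-negative library, 76 to 102 kept their call, and without 1 EGFP-negative library, 45 to 53. With DESeq2 size factors 102 kept it and with limma-voom 96. For genes higher in mCherry-negative cells, the count was 229 to 1185 without 1 library, 985 with DESeq2, 94 in the test against 2-fold, and 118 and 62 without genes with a stretch of 80% and 75% GC or more. With offsets for length and GC it was 790, and with the stretch added 634. For lower genes it was 40 to 928 without 1 library, 646 with DESeq2, 558 with voom and sample weights and 440 with no filter. In the test against 2-fold it was 7, with offsets for length and GC 457, and with the stretch added 479. It was 135 and 93 without the GC-rich genes, where, as for higher genes, the main p-values were only adjusted again. With the replicate block the counts were 387 higher and 160 lower, and the difference between contrasts was called for 115 genes. Same-numbered libraries correlated at -0.073 to -0.0078 in their deviations from the group mean, and other pairs at -0.048 to 0.082. No pairing by number was seen, but deviations within groups of 3 cannot exclude a shared source. The difference was called for 894 genes by DESeq2, 675 with no filter, and 27 to 591 without 1 library. Uncalled genes changed sign near 0: Neil3 (0.0048 with voom, -0.092 to 0.090 without 1 library), Mpeg1 (0.15 with sample weights, 0.032 with the replicate block, -0.37 to 0.50 without 1 library), Pclaf (-0.038 and -0.029 with offsets, -0.040 to 0.18 without 1 library), Mbp (0.011 and 0.11 with offsets, -0.19 to 0.031 without 1 library) and Top2a (-0.32 to 0.13 without 1 library). The cause was not tested. In a fit without 1 library, the group of 2 is assumed to vary like the group of 3. At this depth Hcrt could not be compared.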

Other observations

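Pituitary genes, the pro-opiomelanocortin gene and ribosomal protein genes varied widely among the mCherry-negative libraries. Pomc, the precursor of melanocortins, stood at 3.64, 197 and 88.1 CPM in mCherry-negative and 394, 327 and 293 CPM in EGFP-negative libraries, without overlap, and was not called by edgeR (log2 fold change -1.81, adjusted p = 0.307). Gh, growth hormone, stood at 0.0974, 0.688 and 61.9 CPM against 17.1, 15.3 and 14.9 CPM. The summed level of pituitary markers was 7.67, 224 and 179.8 CPM against 472, 396 and 366 CPM, and 0 of 11 were called by edgeR or DESeq2, with 3 lower at an unadjusted p under 0.05. Ribosomal protein genes summed to 2246, 2233 and 4171 CPM against 4281, 3541 and 3452 CPM, with mCherry-negative replicate 3 among the EGFP-negative libraries. Of the 24, edgeR called 0 and DESeq2 0, 2 were lower at an unadjusted p under 0.05, and 18 fell without that replicate.

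Extracellular matrix genes were low in the mCherry-negative libraries other than replicate 1. Of 27 collagen and matrix genes, Col1a1 and Fn1, fibronectin (log2 fold change -1.56, edgeR adjusted p = 0.0369), fell, and 13 fell without replicate 1. Of 16 fibroblast and meningeal genes 1 fell, Col1a1, and 6 fell without replicate 1. Both kept the call in 2 of the 6 fits with 1 library left out, with adjusted p up to 0.148 and 0.172.

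Single members of other lists were called. Over all genes tested, 3.44% were called higher and 1.5% lower, so 1 call in a list this small is no result about the list. Srebf2, the master regulator of sterol synthesis, fell (1 of 20 genes, -1.08, adjusted p = 0.0184), as did Axin2, a Wnt target (1 of 21, -1.18, 0.0455), Bag3, a co-chaperone (1 of 12 heat shock genes, -0.84, 0.0188), and Calr, a chaperone of the endoplasmic reticulum (-0.60, 0.0260), on whose list of 24 Cebpb was the 1 rise. Cadps, a factor of dense-core vesicle release (1 of 15, 1.08, 0.00424), Cdkn1a, an inhibitor of the cell cycle (1 of 20 targets of p53, 0.66, 0.0352), Meg3, a maternally expressed long RNA (1 of 29 imprinted genes, 0.98, 0.0360) and Gclc, of glutathione synthesis (1 of 14, 1.09, 0.0497), rose. Of 17 targets of NF-kB and cytokines, Saa3 rose (1.96, 0.0371) and Serpina3n, a protease inhibitor of reactive glia, fell (-1.05, 0.00637). Cadps kept the call in all 6 fits with 1 library left out and Serpina3n in 5. Srebf2 and Bag3 kept it in 3, Axin2, Calr, Cdkn1a, Meg3 and Saa3 in 2, and Gclc in 1, with adjusted p up to 0.247 for Gclc. With the GC-rich stretch in the offsets, Cadps (0.52, adjusted p = 0.0578) and Gclc (0.47, adjusted p = 0.327) were no longer called.

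By edgeR no member was called of the 17 antigen presentation genes (median log2 fold change -0.25), 8 mural (-0.79), 8 endothelial (-0.29), 8 choroid plexus (-0.48) and 10 epithelial (-0.67) genes, 10 genes of neighbouring brain regions (-0.40), 19 circadian genes (-0.03) or 11 histone genes (-0.14), and no erythroid gene passed the filter on low counts. At an unadjusted p under 0.05 each of these lists had 1 to 4 members, DESeq2 called 0 to 2 of each, and at most 2 of each were called with 1 library left out. Among 6 sex-linked genes Xist, the RNA of the inactive X chromosome, stood at 41.3, 41.5 and 51.8 CPM against 103, 95.2 and 82.6 CPM (-1.06, adjusted p = 0.00395) and was the only 1 called.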
